A study of Arabidopsis thaliana with 6 samples.

Results

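The genes that carry a plant cell from G1 into S phase and copy its DNA were followed in the base of the *Arabidopsis thaliana* inflorescence stem, where the cambium divides and the stem thickens. The set holds 42 of the 33602 gene loci in the deposited count table and was chosen by locus code, from D-type and A3-type cyclins through the licensing factors and the replicative helicase to the polymerases. All 42 loci were found in the count table, and all 42 had enough counts to be tested. Stem bases labelled *smxl4 smxl5*, after a pair of SMXL genes known to promote phloem formation, were compared with stem bases labelled wild type. All shoots had been grafted onto roots of wild type, so that only the stem and leaves carried the label's genotype. There were 3 libraries per genotype, each made from 3 pooled fragments, 1 cm long, of stems 15 to 20 cm high. The labels do not describe the alleles.

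Libraries labelled *smxl4 smxl5* held 21364628 to 36133200 counts and libraries labelled wild type held 33749559 to 49929595 counts, and 20296 loci were tested. *SMXL4* stood at 13.4, 15.3 and 11.2 CPM (counts relative to the library total after TMM scaling) under the *smxl4 smxl5* label, against 12.1, 10.2 and 11.1 CPM in the wild-type libraries (edgeR adjusted p = 0.179). *SMXL5* stood at 116, 116 and 82.0 CPM, against 112, 97.5 and 99.4 CPM in wild type (edgeR adjusted p = 0.920). As neither gene named by the genotype was called lower, the labels could not be checked from the counts, and the libraries labelled *smxl4 smxl5* are called mutant-labelled below. Of 5 root endodermis markers 3 were tested and none was called, and they summed to 1.41 to 1.63 CPM in the mutant-labelled libraries and to 1.39 to 1.64 CPM in wild type. Of 4 floral organ markers *AP3* was at 0 in every library, and *AG* and *SEP3* had at most 1 count in any library. *PI* alone was tested and called higher, with 67, 31 and 25 counts against 11, 6 and 2 counts in wild type. In RNA from whole stem bases, fewer cells of a type and less RNA per cell cannot be told apart.

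As background, D-type cyclins join the kinase CDKA and phosphorylate the retinoblastoma-related protein RBR1, which then releases E2F transcription factors, the activators of S-phase genes. Before S phase the origin recognition complex, CDC6 and CDT1 load the MCM helicase onto origins. During S phase CDC45 and the GINS complex activate that helicase, PCNA clamps the polymerases to the template, and ribonucleotide reductase supplies deoxynucleotides. In a thickening stem most cell division takes place in the cambium, where the CYCD3 cyclins are known to act.

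Of the 42 genes, 6 were lower and 1 was higher in the mutant-labelled libraries by edgeR's quasi-likelihood test at an adjusted p under 0.05, and 35 were not called. The lower genes were the D-type cyclin genes *CYCD3;1*, *CYCD3;3* and *CYCD4;1*, the licensing factor gene *CDT1B*, the clamp gene *PCNA1* and the ribonucleotide reductase gene *TSO2*. The higher gene was the D-type cyclin gene *CYCD2;1*. The 7 called genes are 16.7% of the set, below the 24.9% called among all genes tested. The 6 lower genes are 14.3% of the set against a background of 13.7%, and the 1 higher gene is 2.38% against 11.2%. Neither share was clearly above its background. None of the 42 changed by 1 or more on the log2 scale, a size that 4.81% of all genes reached with a call. The median log2 fold change of the set was -0.20, beside 0.02 over all genes tested, and 30 of the 42 values were negative, or 71.4%, against 47.0% of all genes tested. Per library the genotypes overlapped in this. The set's mean deviation of log2(CPM + 0.5) from each gene's mean was 0.024, -0.137 and -0.116 in the mutant-labelled libraries. In wild type it was 0.098, 0.135 and -0.005, so mutant-labelled replicate 1 lay above wild type replicate 3. The median size of a change, regardless of sign, was 0.21 on the log2 scale for the set and 0.23 for all genes.

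**Figure D1:**
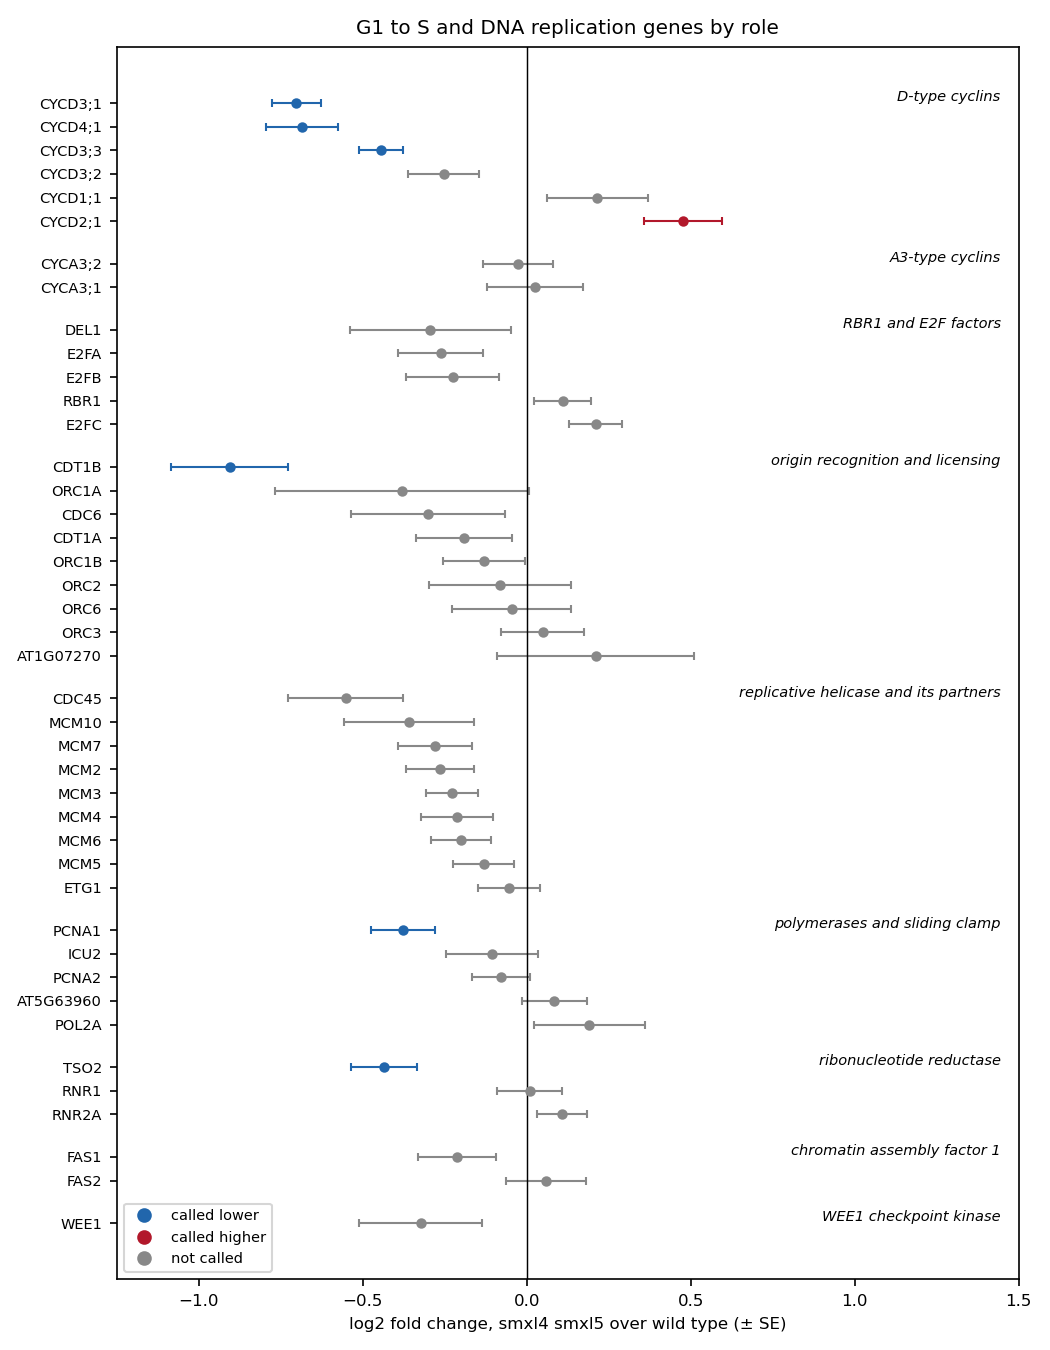
The log2 fold change of each of the 42 genes (horizontal axis, mutant-labelled over wild type, bars ± SE, 3 libraries per genotype) is plotted by role, with called genes in colour. The D-type cyclins spread from -0.70 to 0.48, all 9 helicase genes lie left of 0, and *CDT1B* at -0.91 is the lowest point.

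A binding word of the E2F factors is the sequence feature for which S-phase genes are best known. It was searched as TTTCCCGC, TTTCGCGC, TTTGCCGC and TTTGGCGC on both strands, from 250 bases before to 50 bases after the annotated start of each gene in the TAIR10.1 genome. Of 42 promoters of the set, 15 held at least 1 match, or 35.7%, against 1.88% of the 19366 promoters of protein-coding genes tested and 1.76% of all 27443. The helicase genes had the most matched promoters by number, with 5 of the 6 genes *MCM2* to *MCM7*, and both chromatin assembly factor 1 genes had a match. Their windows are shown, with that of *CYCD3;3*, because they set the role with the most matched promoters beside the only called gene that has one. Each runs 5′ to 3′ on the strand of its gene, ends at or before the annotated start, and has the match in capitals (credit RefSeq, TAIR10.1).
MCM2 (AT1G44900, chr1:16970184-16970213, plus strand): caaattggcgccaataTTTCCCGCctaatc
MCM3 (AT5G46280, chr5:18773853-18773892, minus strand): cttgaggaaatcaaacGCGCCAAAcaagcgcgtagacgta
MCM4 (AT2G16440, chr2:7130741-7130780, minus strand): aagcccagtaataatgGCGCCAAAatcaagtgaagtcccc
MCM5 (AT2G07690, chr2:3527501-3527535, minus strand): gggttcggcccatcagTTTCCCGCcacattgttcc
MCM6 (AT5G44635, chr5:18010690-18010729, minus strand): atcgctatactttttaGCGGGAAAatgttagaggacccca
CYCD3;3 (AT3G50070, chr3:18566915-18566954, minus strand): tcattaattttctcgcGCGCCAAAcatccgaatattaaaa

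Most genes with a match were not called. The same held for the whole set and for all genes tested, where the called shares were 16.7% and 24.9%. Of the 6 lower genes 1 had a match, the 1 higher gene had none, and of the 35 genes not called 14 had one, a difference in shares that was not tested. The median log2 fold change was -0.13 over the 15 genes with a match and -0.23 over the 27 without. The nearest of the words shown, in *MCM2*, and the farthest, in *MCM3*, began at -14 and -170 relative to the start. The other genes with a match were *RBR1*, 4 of the 9 origin and licensing genes, *ICU2*, *RNR1* and both genes of chromatin assembly factor 1. A match is a description of letters in the promoter, not a site shown to be bound.

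The D-type cyclins, which start the passage through G1, gave 4 of the 7 calls and moved in both directions. *CYCD3;1* (AT4G34160, chr4:16357421-16359565), a cytokinin-responsive cyclin gene, had 42.8, 48.6 and 48.0 CPM in the mutant-labelled libraries, against 74.7, 75.0 and 77.1 CPM in wild type. Every mutant-labelled library lay far below every wild-type library, and the means were 46.5 ± 3.17 and 75.6 ± 1.29 CPM (SD, n = 3 each). The log2 fold change was -0.70 ± 0.07 (SE, edgeR adjusted p = 0.00246), the smallest adjusted p of the set. Its relative *CYCD3;3* (AT3G50070, chr3:18565134-18566834) had 18.8, 17.4 and 18.5 CPM, against 25.0, 25.0 and 24.5 CPM in wild type. The genotypes did not overlap, and the log2 fold change was -0.44 ± 0.07 (edgeR adjusted p = 0.00570). The third member of the CYCD3 group, *CYCD3;2* (AT5G67260), was also lower in each mutant-labelled library than in any of wild type, at 15.0, 16.4 and 15.7 against 17.1, 17.3 and 21.6 CPM. At -0.25 ± 0.11 it did not pass the test (edgeR adjusted p = 0.123).

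*CYCD4;1* (AT5G65420, chr5:26141470-26144020), a cyclin gene related to *CYCD2;1*, had 5.21, 4.74 and 4.91 CPM in the mutant-labelled libraries, against 8.40, 8.27 and 7.27 CPM in wild type. The log2 fold change, -0.68 ± 0.11, was close to that of *CYCD3;1* (edgeR adjusted p = 0.00644). *CYCD2;1* (AT2G22490, chr2:9553797-9556167) was the exception in direction, with 24.5, 24.6 and 19.7 CPM in the mutant-labelled libraries, against 15.9, 15.0 and 18.5 CPM in wild type. The genotypes did not overlap, although mutant-labelled replicate 3 came close to wild type replicate 3, and the log2 fold change was 0.48 ± 0.12 (edgeR adjusted p = 0.0262). That call was lost without mutant-labelled replicate 1 or 2 or wild type replicate 1 or 2, with log2 fold changes between 0.41 and 0.45 there and adjusted p up to 0.102. *CYCD1;1* (AT1G70210) overlapped between genotypes, at 0.22 ± 0.16 (edgeR adjusted p = 0.332), with mutant-labelled replicate 1 highest at 7.93 CPM.

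The order of the mean levels of the 6 D-type cyclins of the set differed between genotypes. CPM values were divided by exon length (RPKM) for this comparison between genes. In the mutant-labelled libraries *CYCD3;1* averaged 24.8 RPKM, *CYCD2;1* 13.2, *CYCD3;3* 12.7, *CYCD3;2* 9.32, *CYCD1;1* 2.59 and *CYCD4;1* 2.45. In wild type *CYCD3;1* averaged 40.3 RPKM, *CYCD3;3* 17.3, *CYCD3;2* 11.1, *CYCD2;1* 9.44, *CYCD4;1* 3.95 and *CYCD1;1* 2.23. *CYCD2;1* thus ranked above *CYCD3;3* and *CYCD3;2* in the mutant-labelled libraries and below both in wild type. In the mutant-labelled libraries its range of 11.3 to 14.1 RPKM overlapped that of *CYCD3;3*, 12.1 to 13.0 RPKM, so the order of those neighbours is not settled. *CYCD2;1* and *CYCD3;2* overlapped in wild type, at 8.59 to 10.6 and 10.2 to 12.8 RPKM. *CYCD1;1* and *CYCD4;1* overlapped in the mutant-labelled libraries, at 2.12 to 3.17 and 2.35 to 2.58 RPKM, and did not in wild type, at 2.20 to 2.28 and 3.60 to 4.16 RPKM. Outside the set, *CYCD5;1* averaged 4.38 RPKM in the mutant-labelled libraries and 4.02 RPKM in wild type and was not called. Summed over the 6 genes, D-type cyclin counts reached 112 to 118 CPM in the mutant-labelled libraries and 146 to 154 CPM in wild type. *CYCD3;1* alone averaged 46.5 and 75.6 CPM of these sums.

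**Figure D2:**
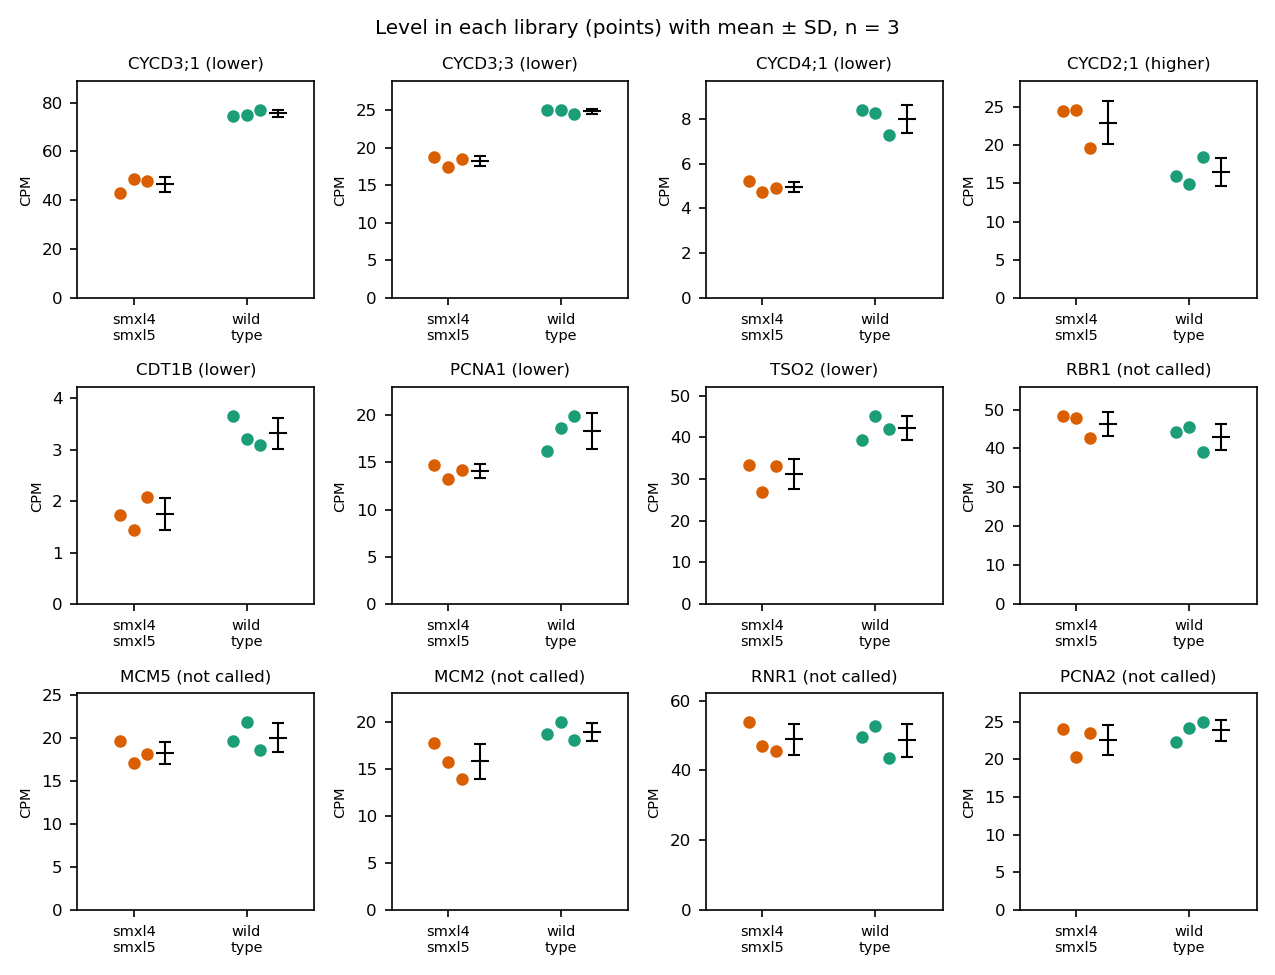
Levels in CPM (vertical axes from 0) of the 7 called genes and 5 that were not called are shown for each library, mutant-labelled left and wild type right, with mean ± SD (n = 3). *CYCD3;1* separates the genotypes most widely in CPM, while *RNR1*, *RBR1*, *MCM5* and *PCNA2* overlap.

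The A3-type cyclins, which act at the onset of S phase, did not pass the test. *CYCA3;1* (AT5G43080) had 2.37, 2.46 and 2.58 CPM in the mutant-labelled libraries, against 2.38, 2.64 and 2.26 CPM in wild type. *CYCA3;2* (AT1G47210), the more abundant of the pair, had 16.9, 14.4 and 14.4 CPM, against 17.2, 14.2 and 15.2 CPM in wild type. The genotypes overlapped for both, with log2 fold changes of 0.03 and -0.03 and 95% intervals of -0.32 to 0.37 and -0.27 to 0.22.

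None of the 5 genes of the RBR1 and E2F switch was called. *RBR1* (AT3G12280), which encodes the repressor that D-type cyclin kinases inactivate, had 48.4, 47.9 and 42.8 CPM in the mutant-labelled libraries, against 44.3, 45.4 and 39.2 CPM in wild type (log2 fold change 0.11 ± 0.09, edgeR adjusted p = 0.373). *E2FC* (AT1G47870), known as a repressor among the E2F factors, had 18.9, 16.8 and 17.2 CPM, against 14.6, 16.1 and 15.1 CPM in wild type. It was higher in each mutant-labelled library than in any of wild type, yet at 0.21 ± 0.08 it missed the threshold (edgeR adjusted p = 0.0964). The activator gene *E2FB* (AT5G22220) had 5.42, 5.16 and 6.02 CPM, against 6.94, 7.14 and 5.39 CPM in wild type, where replicate 3 lay among the mutant-labelled values. *E2FA* (AT2G36010), the other activator, was at -0.26 ± 0.13, and *DEL1* (AT3G48160), an atypical E2F gene that holds back endoreduplication, was at -0.29 ± 0.25.

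Of the 9 genes that mark and license origins, 1 was called. *CDT1B* (AT3G54710, chr3:20251812-20254323), which encodes a loader of the MCM helicase, had 1.74, 1.44 and 2.08 CPM in the mutant-labelled libraries, against 3.66, 3.22 and 3.09 CPM in wild type. The genotypes were well apart, and the log2 fold change of -0.91 ± 0.18 was the largest of the 42 in size (edgeR adjusted p = 0.0123). It rests on few reads, 31 to 75 counts in the mutant-labelled libraries and 123 to 153 counts in wild type. Its paralog *CDT1A* (AT2G31270) had 7.37, 5.49 and 5.71 CPM, against 7.80, 7.03 and 6.44 CPM in wild type, and the genotypes overlapped (-0.19 ± 0.14, edgeR adjusted p = 0.358).

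None of the 5 origin recognition genes of the set was called. *ORC3* (AT5G16690), the highest of these 5 per length, had 7.39, 7.25 and 6.18 CPM in the mutant-labelled libraries, against 6.43, 7.54 and 6.14 CPM in wild type. *ORC1B*, *ORC2* and *ORC6* had log2 fold changes between -0.13 and -0.05, and *ORC1A* (AT4G14700) was at -0.38 ± 0.39. The loader gene *CDC6* (AT2G29680) was at -0.30 ± 0.23 and its paralog AT1G07270 at 0.21 ± 0.30. *ORC1A* and AT1G07270 averaged under 1 CPM, with 11 to 32 counts in any library, so only large changes could have been seen in them.

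All 9 genes of the replicative helicase and its partners had negative log2 fold changes, but none was called. *MCM2*, a subunit of the ring that unwinds the template, had 17.7, 15.8 and 13.9 CPM in the mutant-labelled libraries, against 18.7, 20.0 and 18.1 CPM in wild type. *MCM3* had 16.7, 15.7 and 16.8 CPM, against 18.6, 20.7 and 18.3 CPM in wild type, and *MCM5* had 19.6, 17.0 and 18.0 CPM, against 19.6, 21.8 and 18.5 CPM in wild type. The genotypes did not overlap for *MCM2* and *MCM3*, whereas for *MCM5* they did. Over *MCM2* to *MCM7* the log2 fold changes ran from -0.28 to -0.13, with edgeR adjusted p between 0.0726 and 0.323. Their summed level was 95.9, 88.2 and 84.7 CPM in the mutant-labelled libraries and 103, 113 and 96.4 CPM in wild type, so mutant-labelled replicate 1 and wild type replicate 3 were almost level. Per length, the 6 subunits, which form 1 ring, ran from 3.43 to 6.77 RPKM in the mutant-labelled libraries and from 3.93 to 7.42 RPKM in wild type. These ranges are not particular to the ring. *ETG1*, at 5.40 RPKM and 5.61 RPKM in wild type, and *FAS1*, at 3.60 RPKM and 4.18 RPKM in wild type, lay within them.

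Among the partners, *CDC45* (AT3G25100), which activates the helicase, came nearest to a call. It had 2.31, 2.65 and 2.19 CPM in the mutant-labelled libraries, against 3.04, 4.15 and 3.23 CPM in wild type, without overlap. The log2 fold change of -0.55 ± 0.17 gave an edgeR adjusted p of 0.0538, the lowest of the genes not called. *MCM10* (AT2G20980) was at -0.36 ± 0.20 and *ETG1* (AT2G40550), a partner of the MCM ring named as an E2F target, at -0.05 ± 0.09. In all, the libraries of the genotypes did not overlap for 16 of the 42 genes, or 38.1%, against a background of 45.3% of all genes tested.

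**Figure D3:**
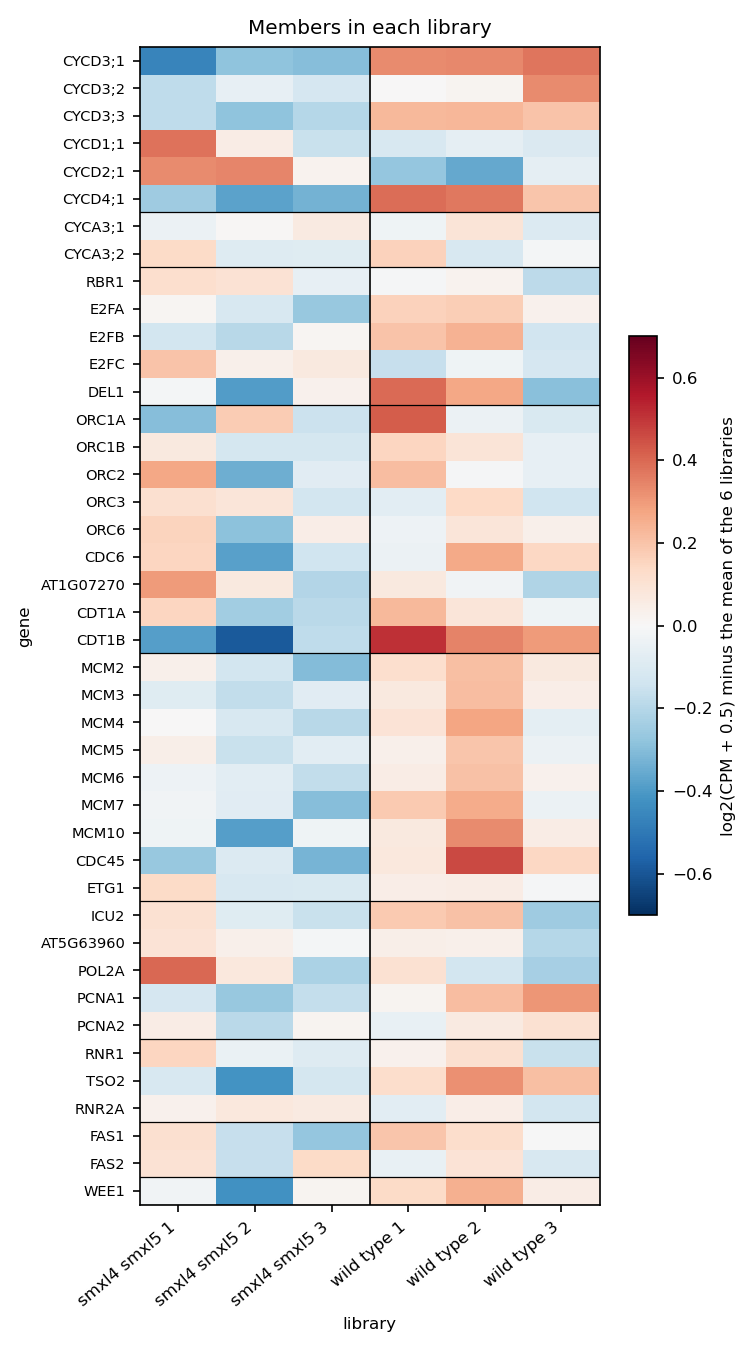
Each cell shows 1 gene in 1 library as log2(CPM + 0.5) minus the gene's mean over the 6 libraries, mutant-labelled columns left and wild-type columns right, with lines between roles. *CYCD3;1*, *CYCD3;3*, *CYCD4;1* and *CDT1B* change colour at the genotype border, while most replication genes are pale, with wild type replicate 2 the most strongly coloured column of the helicase block.

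At the fork itself the clamp gene *PCNA1* (AT1G07370, chr1:2263037-2264553) was lower, with 14.7, 13.2 and 14.2 CPM in the mutant-labelled libraries, against 16.2, 18.7 and 19.9 CPM in wild type. The log2 fold change was -0.38 ± 0.10 (edgeR adjusted p = 0.0293), a call lost without mutant-labelled replicate 1 or 2 or wild type replicate 2 or 3, with adjusted p up to 0.104. *PCNA2* (AT2G29570), which encodes the other form of the clamp, had 24.0, 20.3 and 23.5 CPM, against 22.4, 24.2 and 25.0 CPM in wild type. It overlapped between genotypes, at -0.08 ± 0.09 (edgeR adjusted p = 0.546). The catalytic polymerase genes were not called. *POL2A* (AT1G08260), of polymerase epsilon, had 26.9, 21.3 and 17.3 CPM, against 21.8, 18.5 and 17.1 CPM in wild type, and varied as much within a genotype as between them. *ICU2* (AT5G67100), of polymerase alpha, was at -0.10 ± 0.14 and AT5G63960, of polymerase delta, at 0.08 ± 0.10. *POL2A* and *ICU2* share 1756 and 1326 bases with a locus on the opposite strand, and the strand setting of the counting is not given in the sources used here. Such overlaps are not limited to these genes. Of the set, 13 genes overlap a locus on the opposite strand and 4 overlap one on the same strand. Among the called genes, *CYCD3;1* shares 40 bases with AT4G34150, itself at -0.65 (edgeR adjusted p = 0.149), and *TSO2* shares 3 bases with AT3G27050, both on the same strand. Whether reads were shared was not tested.

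In ribonucleotide reductase, the small-subunit gene *TSO2* (AT3G27060, chr3:9979841-9981620) was the called one. It had 33.4, 27.0 and 33.1 CPM in the mutant-labelled libraries, against 39.4, 45.2 and 41.9 CPM in wild type, without overlap (-0.44 ± 0.10, edgeR adjusted p = 0.0201). Without wild type replicate 2 the call was lost (edgeR adjusted p = 0.0819). Another small-subunit gene, *RNR2A* (AT3G23580), had 19.3, 19.9 and 19.7 CPM, against 17.9, 19.5 and 17.2 CPM in wild type. *RNR1* (AT2G21790), which encodes the large subunit, had 53.9, 47.1 and 45.6 CPM, against 49.6, 52.7 and 43.5 CPM in wild type. Neither was called, at 0.11 ± 0.08 and 0.01 ± 0.10, and the 95% interval of *RNR1* was -0.22 to 0.24.

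Chromatin assembly factor 1 puts histones onto new DNA, and its genes were not called. *FAS1* (AT1G65470) had 13.3, 10.9 and 10.1 CPM in the mutant-labelled libraries, against 14.1, 13.4 and 12.2 CPM in wild type (-0.21 ± 0.12, edgeR adjusted p = 0.220). *FAS2* (AT5G64630) had 7.75, 6.37 and 7.93 CPM, against 6.91, 7.72 and 6.62 CPM in wild type (0.06 ± 0.12, edgeR adjusted p = 0.750). *WEE1* (AT1G02970), the kinase gene of the replication checkpoint, had 2.25, 1.58 and 2.33 CPM, against 2.56, 2.82 and 2.40 CPM in wild type. The *WEE1* values did not overlap but lay close together, with replicate 3 of each genotype almost level (-0.32 ± 0.19, edgeR adjusted p = 0.236).

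The called genes *CDT1B*, *PCNA1* and *TSO2* each have a relative that was not called. The balance within 6 pairs of related genes was described by the share of the first gene in the counts of the pair. *CDT1A* made up 80.9%, 79.2% and 73.3% of the counts of *CDT1A* and *CDT1B* in the mutant-labelled libraries, against 68.1%, 68.6% and 67.6% in wild type. *PCNA1* made up 38.4 ± 0.97% of the PCNA counts in the mutant-labelled libraries, against 43.3 ± 1.20% in wild type (SD, n = 3 each). *TSO2* made up 61.2 ± 3.18% of the counts of *TSO2* and *RNR2A*, against 69.9 ± 1.06% in wild type. In these 3 pairs the genotypes did not overlap, with differences of 9.72, -4.90 and -8.63 percentage points. Each of them holds a called gene, so this separation is not independent of those calls. Each gave p = 0.1 in a two-sided exact permutation test, the smallest p that 3 against 3 libraries allow, and 0.2 after adjustment over the 6 pairs, so no difference in these shares could have passed 0.05. For *CDC6* with AT1G07270, *ORC1A* with *ORC1B* and *CYCA3;1* with *CYCA3;2* the shares overlapped, with differences of -7.63, -1.15 and 0.43 percentage points. No pair shared a stretch of 200 bases at 95% identity, and shorter stretches were not searched. *PCNA2*, *RNR2A*, *CDC6* and *ORC1A* overlap a locus on the opposite strand by 279, 153, 123 and 825 bases. Whether reads from those loci entered the shares was not tested.

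**Figure D4:**
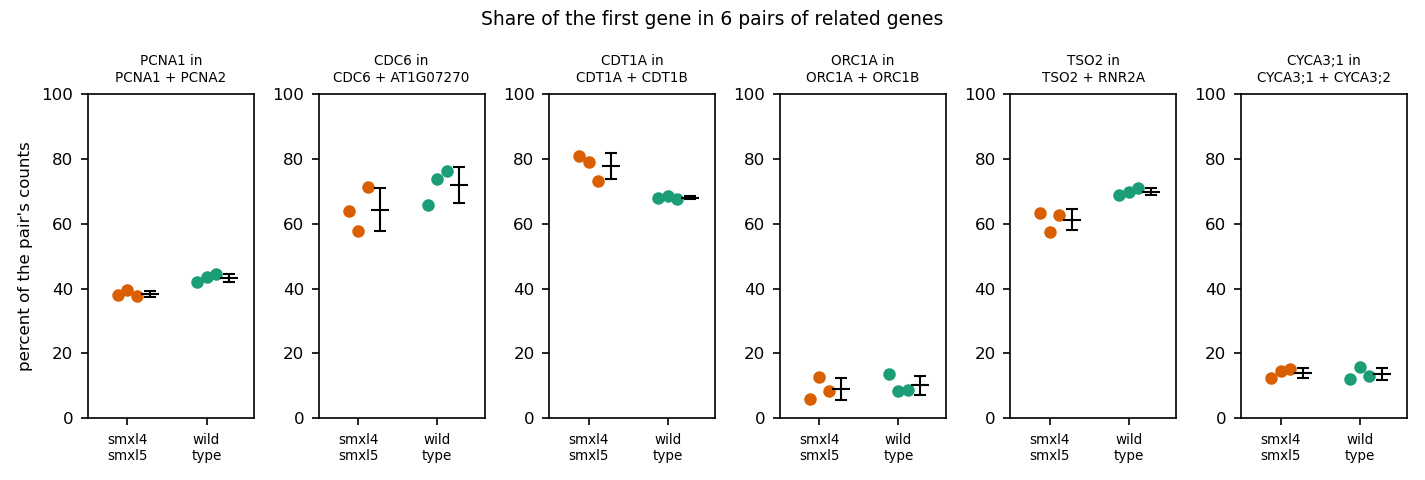
The share of the first gene in the summed counts of each of 6 pairs of related genes (vertical axes, 0 to 100%) is shown per library, mutant-labelled left and wild type right, with mean ± SD (n = 3). The shares of *PCNA1*, *CDT1A* and *TSO2* separate the genotypes, with the share of *CDT1A* higher in the mutant-labelled libraries and the other two lower.

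Beyond the 42 genes, a list of 78 other genes of the same pathway was read from the same test, and 74 were tested, of which 7 were lower and 3 higher in the mutant-labelled libraries. These 10 calls are 13.5% of the list, below the 24.9% of all genes tested, with 9.46% lower against 13.7% and 4.05% higher against 11.2%. Their median log2 fold change was -0.02. Leaving out wild type replicate 2 left 1 lower and 1 higher call, and leaving out wild type replicate 1 left 2 lower and 2 higher calls. Leaving out mutant-labelled replicate 1 or 2 left 3 lower and 2 higher calls each time. Of the GINS complex, which joins CDC45 and MCM in the active helicase, *PSF1* had 9.13, 11.2 and 8.01 CPM in the mutant-labelled libraries, against 5.63, 5.48 and 6.16 CPM in wild type. *PSF2* had 6.62, 6.74 and 6.90 CPM, against 4.68, 4.32 and 4.46 CPM in wild type. With log2 fold changes of 0.71 ± 0.14 and 0.59 ± 0.10 (edgeR adjusted p = 0.0119 and 0.00811), both rose in the mutant-labelled libraries. Without wild type replicate 2 the call of *PSF1* was lost (edgeR adjusted p = 0.0534). All 9 other origin, helicase and GINS genes had positive log2 fold changes, of which those 2 were called. All 9 helicase genes of the set had negative ones, none of them called, as had 7 of its 9 origin and licensing genes. This contrast in sign was not tested.

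Among other nucleotide supply genes, the thymidine kinase gene *TK1A* fell by 0.48 and the dUTPase gene *DUT1* fell by 0.46 on the log2 scale (edgeR adjusted p = 0.00970 and 0.0120). *CYCD6;1*, a cyclin gene known from formative divisions in the root, was at -0.73 ± 0.20, and *DEL3*, an atypical E2F gene, at -0.68 ± 0.18 (edgeR adjusted p = 0.0332 and 0.0303). *POLD2*, of polymerase delta, was lower at -0.43 ± 0.10 (edgeR adjusted p = 0.0228). The CDK inhibitor genes were split, with *KRP7* at -0.46 ± 0.12 and AT2G32710 at 0.25 ± 0.07 (edgeR adjusted p = 0.0320 and 0.0458). Of 13 genes for histones H3.1 and H4, multigene families in which shared reads were not tested, all had negative log2 fold changes and 1, AT5G59970, was called (-0.45 ± 0.13, edgeR adjusted p = 0.0378). Summed over these histone genes the genotypes overlapped, at 351, 294 and 364 CPM in the mutant-labelled libraries, against 347, 396 and 434 CPM in wild type. The calls of *CYCD6;1*, *DEL3*, *POLD2*, *KRP7*, AT2G32710 and AT5G59970 were each lost without at least 3 of the 6 libraries left out in turn, with edgeR adjusted p up to 0.167, and that of *DUT1* was lost without wild type replicate 2 (edgeR adjusted p = 0.0575). None of the 16 clamp loader, RPA and Okazaki fragment genes was called.

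Genes of the later phases of the cell cycle gave larger fold changes in the same libraries. All 11 genes of a G2 and mitosis list, such as B-type cyclins, B-type CDKs and aurora kinases, were lower, from -1.05 to -0.64 on the log2 scale with the median at -0.91. They summed to 85.3, 76.3 and 107 CPM in the mutant-labelled libraries, against 165, 171 and 160 CPM in wild type. Mutant-labelled replicate 3 was the highest of its group there. The difference between the lists was not tested. Of 8 cambium markers 5 were lower, with a median of -0.35 and sums of 552 to 645 CPM in the mutant-labelled libraries, against 743 to 825 CPM in wild type. All 8 phloem markers were lower too, with sums of 268 to 294 CPM in the mutant-labelled libraries, against 563 to 620 CPM in wild type, as were all 5 xylem markers, all 5 markers of photosynthetic cortex and 3 of 5 epidermis markers. Whether the make-up of the tissue had a part in the values of *CYCD3;1*, *CYCD3;3*, *CYCD4;1*, *CDT1B*, *PCNA1* and *TSO2* was not tested.

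**Figure D5:**
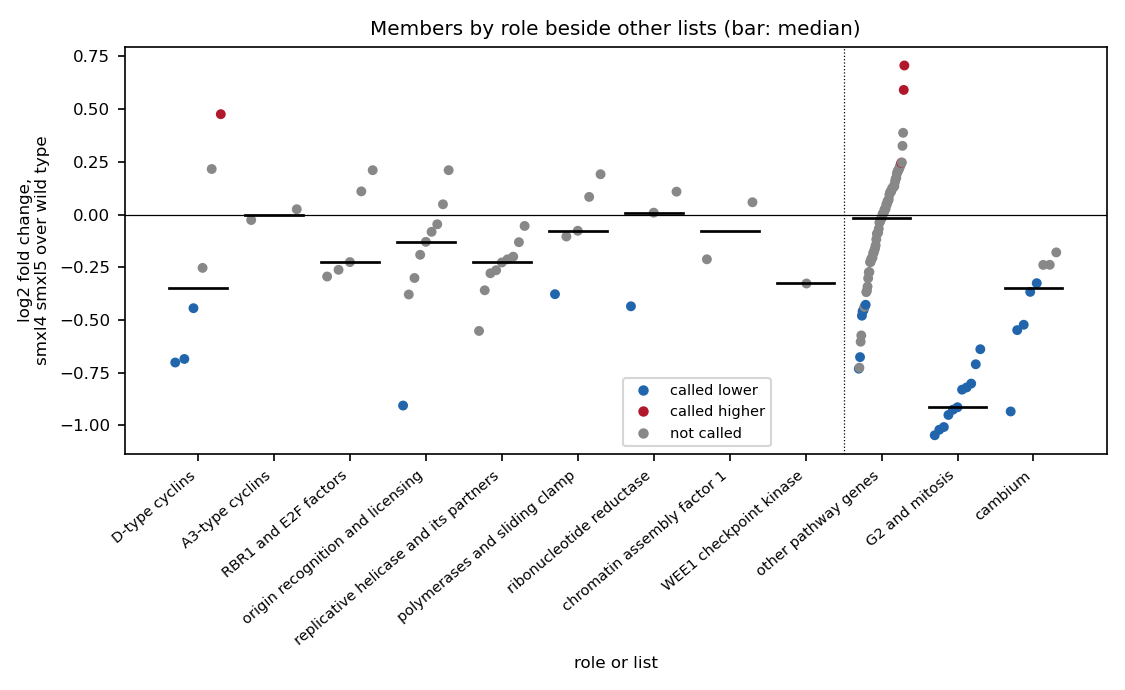
Log2 fold changes (vertical axis, mutant-labelled over wild type) are shown for the 42 genes by role, left of the dotted line, and for the other pathway genes, the G2 and mitosis list and the cambium markers, right of it, with a bar at each median. The 11 G2 and mitosis genes lie between -1.05 and -0.64, lower than all but 3 of the 42 genes.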

How the data were processed

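RNA sequencing counts were analysed for stem bases labelled *smxl4 smxl5* and wild type, with 3 libraries of each. Samples were grouped by the stem genotype in the labels. The labels' protocol states 3 biological replicates per genotype, although the description of every wild-type sample gives replicate 1. The 3 libraries of each genotype were counted as replicates, and p-values judge the genotype difference against the spread between these libraries.

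The authors deposited raw read counts per locus. The submitters' processing notes name the TAIR10 build and the tools TopHat2 2.0.14, FastQC 0.11.7 and DESeq2. How reads were counted, and whether by strand, is not given in the sources used here. A table of the authors' own comparison was deposited too. Its columns hold, per the file headers, the signal of each gene as mean normalized count, the log2 fold change with standard error, the score of the test, and raw and adjusted p-values. The sign of that log2 fold change is wild type over mutant, as all 1295 genes with a change over 1 showed.

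Library totals ran from 21364628 to 49929595 counts. Genes were tested in edgeR 4.0.16 (R 4.3.3) with TMM scaling, filterByExpr at a minimum count of 10 and a minimum total of 15, robust quasi-likelihood F tests, a prior count of 0.125 and Benjamini-Hochberg adjustment over all 20296 loci at 0.05. Standard errors were obtained by dividing each log2 fold change by the root of its F statistic, and 95% intervals use the t distribution with the test's degrees of freedom. The fit was also run on simulated counts with known changes, and it missed part of those changes. CPM values use TMM-scaled library sizes, and RPKM values were computed from them with exon lengths of the RefSeq annotation of TAIR10.1, in which 32835 of 33602 loci were found. Near copies were searched with BLAST 2.17.0. Alternatives were DESeq2 1.42.0, other size factors and filters, the replicate number as a block, single libraries left out and the deposited table.

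The members, lists and tests were chosen with earlier results of these data known. Per-library values are given for up to 4 called genes of each role with the largest change, filled up to 3 with the most abundant. Up to 2 called genes of each other pathway list are named. *CYCD3;2*, *CDC45*, *PSF1* and *PSF2* are also given per library, which was chosen after their values were seen. RBR1-binding motifs in the cyclin proteins were not analysed here.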

Additional observations from a re-analysis of the deposited data

How the results depend on the processing

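The calls of *CYCD3;1*, *CYCD3;3*, *CYCD4;1* and *CDT1B* were kept in all 12 alternatives, with adjusted p up to 0.0144, 0.0308, 0.0338 and 0.0494. *TSO2* was kept in 10, and *PCNA1* and *CYCD2;1* in 7 each. DESeq2, RLE size factors, no filter, a filter at a mean of 1 CPM and the authors' deposited table each called 7 of the 42 genes. Of 582 fold changes of single genes recomputed, 50 lost their call, 0 changed direction with a call, and 532 kept their side of the threshold. Most of the 582 belong to genes not called in the main test, which had no call to lose. The 532 is therefore not a measure of how stable the calls were. The median of the set stayed between -0.25 and -0.13 with single libraries left out.

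With single libraries left out, which also lowers the power, 4 to 6 of the 42 genes were called lower and 0 to 1 higher, 1902 to 5558 genes were called in all, and 1 to 8 of the other pathway genes were called lower and 1 to 3 higher. The replicate numbers were not taken as pairs in the main test. Deviations from the genotype means correlated at 0.04, 0.07 and -0.03 between libraries of the same number. Between libraries of different numbers the correlations ran from -0.22 to 0.14. Deviations within a genotype of 3 libraries depend on each other, so these values do not show a pairing and cannot exclude one. With a replicate block, 4 of the 42 genes were lower and 0 higher, 3356 genes were called in all, and 3 other pathway genes were lower. The cause of these moves was not tested. Differences in genes under about 1 CPM, *ORC1A* and AT1G07270, were limited by depth, and uncalled genes are not shown to be unchanged.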
